A study of Mus musculus with 10 samples.

Results

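A set of 10 genes of the STAT3 and STAT5 pathway was followed in activated mouse CD8+ T cells: the transcription factors Stat3, Stat5a and Stat5b, the feedback inhibitors Cish, Socs1, Socs2 and Socs3, and the target genes Pim1, Pim2 and Bcl3. They are 10 of 23992 gene symbols in the deposited tables. They were chosen by symbol, and where a symbol had several transcripts, the one holding most reads in the 10 libraries together stood for the gene. Reads per transcript and RPKM (reads per kilobase of transcript, scaled to library size) were available for 5 groups of 2 poly(A) RNA libraries. Stat3, Stat5a, Stat5b and Socs3 lie on mouse chromosome 11, Cish on 9, Socs2 on 10, Socs1 on 16, Pim1 on 17, Bcl3 on 7 and Pim2 on X.

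All cells came from the spleens of C57BL/6N mice, whose age is not stated in the labels. CD8+ T cells were isolated with a kit and activated for 48 h on plate-bound anti-CD3 (2 µg/ml) with soluble anti-CD28 (2 µg/ml). They were then pooled, washed and cultured for a further 48 h under 1 of 5 conditions. The IL-21 + LDHi group received mouse IL-21 (100 ng/ml) and 1 µM of NCI-737, an inhibitor of lactate dehydrogenase known by its code name. The IL-21 group received the same IL-21 alone. The IL-2 + LDHi group received human IL-2 (100 IU/ml) and 1 µM NCI-737, and the IL-2 group received IL-2 alone. The last group (NC) received no cytokine and no inhibitor. The inhibitor was present during activation and was added again with the cytokine, and no group received it without a cytokine, so an effect on activation and an effect on the cytokine response cannot be told apart. The study asked how blocking lactate dehydrogenase changes the state of CD8+ T cells grown in IL-21 or IL-2.

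IL-2 and IL-21 both bind receptors that contain the common gamma chain, and both act through JAK1 and JAK3. IL-2 mainly activates STAT5A and STAT5B, whereas IL-21 mainly activates STAT3. The activated STAT dimer binds DNA and raises, among others, genes of the SOCS family, whose proteins bind receptors or JAKs and damp the signal. Cish and Socs2 are classic STAT5 targets, Socs3 is a classic STAT3 target, and the PIM kinases support growth and survival of cytokine-fed lymphocytes. The libraries measure RNA, and phosphorylation of the STAT proteins was not analysed here.

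The library totals given by the authors ran from 45138204 to 62848913 reads, of which 59.9 to 79.4% fell on the transcripts kept for analysis. The lowest share, 59.9%, was that of IL-21 replicate 2, and its RPKM, which are scaled to the authors' total, were below those of IL-21 replicate 1 for all 10 genes. The tests used counts scaled by TMM, a factor computed from the kept transcripts. The markers of CD8+ T cells were high everywhere, with a summed level of 1811 to 2525 RPKM for the 9 of 10 listed genes found in the files. Markers of other cells differed between groups. The 6 basophil and mast cell genes summed to 1.02 to 1.49 RPKM in IL-21 + LDHi, 66.6 to 92.0 in IL-21, 1.61 to 1.84 in IL-2 + LDHi, 2.91 to 3.36 in IL-2 and 206.9 to 459 in NC. The 6 macrophage and monocyte genes found in the files summed to 5.65 to 7.38 RPKM in IL-21 + LDHi, 41.1 to 45.5 in IL-21, 10.6 to 15.9 in IL-2 + LDHi, 10.98 to 13.5 in IL-2 and 126 to 164 in NC. Granulocyte, erythroid and dendritic genes also summed higher in IL-21 and NC than in the other 3 groups. Most of the dendritic sum in IL-21 and NC was Itgax, at 12.5 and 10.1 RPKM in IL-21 and 6.84 and 3.67 in NC. Of the other dendritic genes, Clec9a was also higher in both IL-21 and NC, whereas Flt3, Xcr1, Zbtb46 and Siglech were not. Granulocyte genes summed to 2.37 to 3.10 RPKM in those 3 groups, with Elane, Retnlg, S100a8 and S100a9 at 0 reads in IL-21 + LDHi. The 5 CD4 and regulatory T cell genes summed to 1.54 to 1.89 RPKM in IL-21 + LDHi, 4.92 to 5.18 in IL-21, 14.2 to 15.2 in IL-2 + LDHi, 15.5 to 15.9 in IL-2 and 5.67 to 6.61 in NC. They went opposite ways between the IL-2 groups. Zbtb7b had 3.74 and 3.62 RPKM in IL-2 + LDHi and 9.28 and 8.82 in IL-2. Foxp3 had 4.10 in both IL-2 + LDHi libraries and 0.49 and 1.23 in IL-2, and Cd40lg had 4.09 and 3.77 against 2.06 and 1.62. Cd4 itself had at most 1.05 RPKM in any library. The 4 NK cell genes summed to 173 to 178 RPKM in IL-21 + LDHi, 247 to 420 in IL-21, 228 to 246 in IL-2 + LDHi, 287 to 288 in IL-2 and 131 to 199.96 in NC. Of these, Ncr1 and Klrb1c were singled out after their values were seen. Ncr1, an activating receptor of NK cells, had 0.042 to 0.082 RPKM in IL-21 + LDHi, 0.12 in both IL-21 libraries, 3.90 to 4.34 in IL-2 + LDHi, 0.062 to 0.12 in IL-2 and 0.073 to 0.24 in NC. Klrb1c, which encodes NK1.1, had 4.19 to 4.53 RPKM in IL-2 + LDHi and at most 0.91 in the other groups. The rest of this list, Eomes and Nkg7, went opposite ways between IL-2 + LDHi and IL-2. Eomes had 29.3 and 31.0 RPKM in IL-2 + LDHi and 20.7 and 18.9 in IL-2. Nkg7, which made up most of the NK cell sum, had 189.9 and 206.8 RPKM in IL-2 + LDHi and 265.2 and 268.3 in IL-2. The part of the NK cell genes in the results with IL-2 + LDHi was not tested. The 6 B cell genes summed to 6.16 to 18.2 RPKM in IL-21 + LDHi, 5.37 to 20.4 in IL-21, 8.47 to 9.56 in IL-2 + LDHi, 8.61 to 9.55 in IL-2 and 10.5 to 21.7 in NC. Each of them but Cd79b was higher in replicate 1 than in replicate 2 of every group. Cd79a, for example, had 6.00 and 0.63 RPKM in IL-21 + LDHi, 4.55 and 0.30 in IL-21 and 4.48 and 0.52 in NC. The part of this difference between replicates was not tested. In these bulk samples, fewer cells of a type and less RNA per cell cannot be told apart. The p-values rest on a spread estimated over all 10 libraries together, and the labels leave unstated whether the replicates came from separate mice or cultures, so that spread may be technical. It was not equal in the groups: the SD over genes of the log2 difference between the replicates was 0.42 in IL-21 + LDHi, 0.76 in IL-21, 0.30 in IL-2 + LDHi, 0.36 in IL-2 and 0.49 in NC.

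Cish and Socs3 were highest under different cytokines, and the sequence around their start sites is shown because both hold the palindrome TTCNNNGAA, the core that STAT3 and STAT5 dimers recognise. The sequences are RefSeq's for GRCm38.p6, read 5′ to 3′ on the gene's strand, with each match in capitals. The Cish stretch is chr9:107296539-107296688 on the plus strand, from 120 bases before the start site to 30 bases after it. The Socs3 stretch is chr11:117969367-117969566 on the minus strand, the 200 bases before the start site of RefSeq's promoter table (117969366). RefSeq's span of the Socs3 gene reaches 117970336, so this stretch lies inside the span.
Cish: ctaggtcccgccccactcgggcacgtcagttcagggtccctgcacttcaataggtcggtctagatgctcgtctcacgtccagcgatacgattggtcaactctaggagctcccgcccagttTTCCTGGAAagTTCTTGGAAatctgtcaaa
Socs3: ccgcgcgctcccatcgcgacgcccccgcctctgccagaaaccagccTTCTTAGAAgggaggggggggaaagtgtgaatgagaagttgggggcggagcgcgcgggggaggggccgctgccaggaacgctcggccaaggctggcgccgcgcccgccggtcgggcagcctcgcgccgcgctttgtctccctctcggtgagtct
In Cish, TTCCTGGAA lay at bases 1 to 9 after the start site and TTCTTGGAA at bases 12 to 20, with 2 bases between them. In Socs3, TTCTTAGAA lay from base -154 to base -146. The motif reads the same on both strands. A window of 300 bases (250 before to 50 after the start) was listed for 9 of the 10 genes, in 12 windows, and Cish and Socs3 were the 2 genes with a match. Of 10500 tested genes with a listed window, 8.39% held the motif and 0.52% held 2 or more copies in 1 window. A match is a description of these letters, not a measured binding site.

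Cish, whose protein CIS blocks STAT5 docking sites on the IL-2 receptor, was abundant with IL-2 and lowest with IL-21 + LDHi. Its level was 0.32 and 0.48 RPKM in IL-21 + LDHi, 6.66 and 3.23 in IL-21 alone, 38.4 and 38.7 in IL-2 + LDHi, 44.0 and 38.2 in IL-2, and 2.13 and 2.41 in NC. Neither IL-2 group overlapped any other group, and the 2 IL-2 groups overlapped each other in RPKM. The IL-21 + LDHi libraries held 34 and 52 Cish reads and lay below NC as well as below IL-21. With the inhibitor Cish fell by 3.62 ± 0.28 (log2 fold change ± SE) in IL-21 cells (adjusted p = 2.15e-05, edgeR's quasi-likelihood test with Benjamini-Hochberg adjustment, as for every p below). In IL-2 cells its log2 fold change with the inhibitor was -0.13 ± 0.22 (adjusted p = 0.666). The difference between these effects, the interaction, was -3.49 ± 0.36 (adjusted p = 0.000252). In limma on log2(RPKM + 1), a scale that compresses low values, the log2 fold change in IL-21 cells was -2.02 and the interaction -1.94, both still called.

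Set against NC, Cish rose by 4.16 ± 0.26 with IL-2 (adjusted p = 6.17e-06) and by 4.03 ± 0.25 with IL-2 + LDHi (2.44e-05). With IL-21 it rose by 1.24 ± 0.24 (adjusted p = 0.0126), a call that was lost when NC replicate 1 (adjusted p = 0.0669) or NC replicate 2 (0.0547) was left out, in a fit of these groups alone (0.187) and in limma (0.0719). With IL-21 + LDHi it fell by 2.38 ± 0.29 below NC (adjusted p = 0.000209). Between the inhibitor-treated groups the log2 fold change of IL-21 + LDHi over IL-2 + LDHi was -6.41 ± 0.30 (adjusted p = 7.5e-07), rank 47 by size among 14357 genes tested.

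Socs2, a SOCS protein best known for limiting growth hormone signalling through STAT5, had its lowest and highest levels in the same groups as Cish and was called lower with the inhibitor under both cytokines. It had 0.16 and 0.29 RPKM in IL-21 + LDHi (17 and 32 reads), 2.08 and 1.95 in IL-21 alone, 12.1 and 12.7 in IL-2 + LDHi, 26.6 and 29.9 in IL-2, and 1.75 and 2.28 in NC. Every group was separate except IL-21 and NC, which overlapped. The inhibitor lowered it by a log2 fold change of -3.21 ± 0.26 in IL-21 cells (adjusted p = 2.45e-05) and of -1.23 ± 0.19 in IL-2 cells (0.00123). The interaction was -1.98 ± 0.32 (adjusted p = 0.00274), but in limma on log2(RPKM + 1) it was -0.18 (adjusted p = 0.586), while the change in IL-21 cells was -1.30 and still called. Over the 10 libraries the log2(RPKM + 1) of Cish and Socs2 had a Pearson r of 0.97, as a description of libraries that share treatment groups.

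The basophil, mast cell, macrophage and monocyte sums given above were lowest in IL-21 + LDHi and higher in IL-21 and NC, as were Cish and Socs2 among those 3 groups, and their part in these differences was not tested. In the IL-2 groups, where Cish and Socs2 were highest, the same sums were low. The sum of the CD4 and regulatory T cell genes was lowest in IL-21 + LDHi and highest in the 2 IL-2 groups, as were Cish and Socs2, and its part was not tested. Single genes of that list went opposite ways between the IL-2 groups, as given above. The 5 nuclear RNAs read as a check of RNA quality summed to 461 to 511 RPKM in IL-21 + LDHi, 256 to 302 in IL-21, 222 to 233 in IL-2 + LDHi, 127 to 152 in IL-2 and 277 to 300 in NC, and their part was not tested either.

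Socs3, which binds the gp130 receptor chain and JAKs and is the main brake on STAT3 signalling, was high in both IL-21 groups. It had 226 and 277 RPKM in IL-21 + LDHi, 213.99 and 134 in IL-21 alone, 19.3 and 22.1 in IL-2 + LDHi, 12.6 and 12.3 in IL-2, and 16.1 and 16.3 in NC. No 2 groups overlapped. IL-21 raised it by 3.56 ± 0.17 over NC (adjusted p = 1.03e-05), and IL-21 + LDHi by 4.08 ± 0.17 (8.91e-07). IL-2 against NC gave -0.39 ± 0.15 (adjusted p = 0.0567).

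With the inhibitor Socs3 rose by 0.69 ± 0.15 in IL-2 cells (adjusted p = 0.00672) and by 0.52 ± 0.15 in IL-21 cells (0.0278), and the interaction was -0.17 ± 0.21 (0.616). The IL-2 call was lost without IL-2 replicate 2 (adjusted p = 0.0528) or IL-2 + LDHi replicate 2 (0.0625), and the IL-21 call was lost in limma, in a fit of these groups alone, and without IL-2 replicate 1 (0.0519), IL-2 replicate 2 (0.0520), IL-21 replicate 2 (0.0888) or IL-21 + LDHi replicate 2 (0.200). Where Cish and Socs2 fell most, in IL-21 + LDHi, Socs3 was at its highest.

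The ratio of Socs3 to Cish, both per kilobase, put the 5 groups in separate ranges. It was 704 and 578 in IL-21 + LDHi, 32.1 and 41.5 in IL-21 alone, 0.50 and 0.57 in IL-2 + LDHi, 0.29 and 0.32 in IL-2, and 7.53 and 6.76 in NC. Cish exceeded Socs3 in both IL-2 groups and in no other group.

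**Figure D1:**
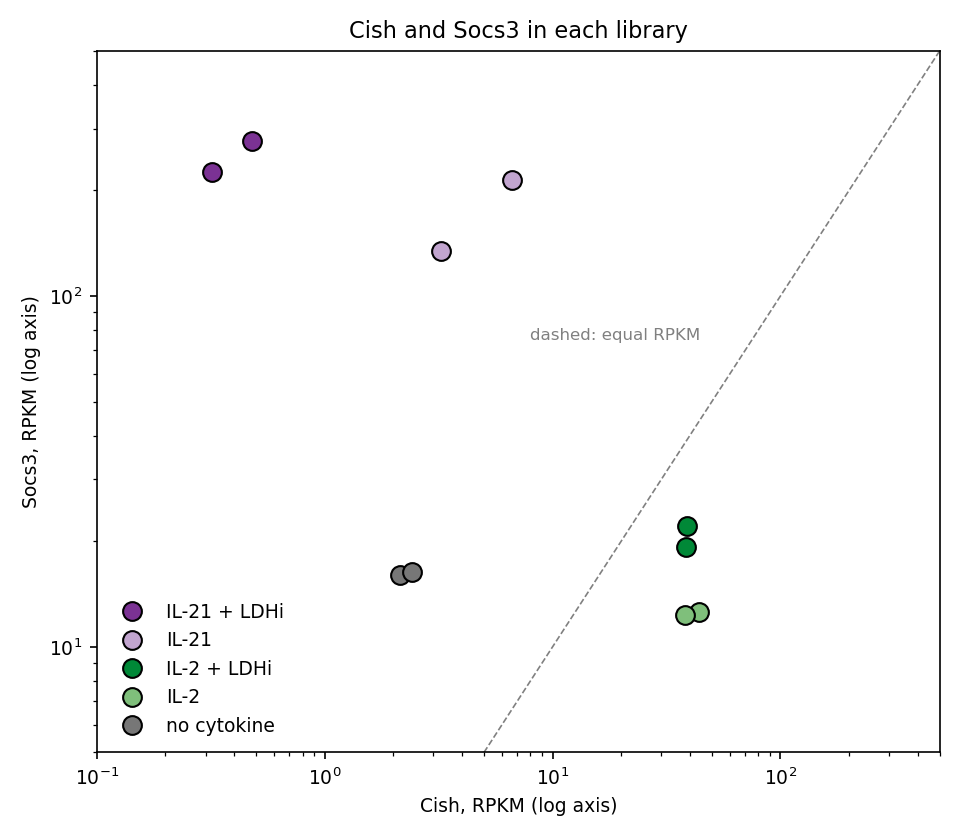
Each point is 1 library, with Cish on the horizontal axis and Socs3 on the vertical axis, both in RPKM on log axes, and the dashed line marks equal RPKM. The IL-21 + LDHi libraries lie at the upper left (Cish 0.32 and 0.48, Socs3 226 and 277), the IL-2 libraries with and without inhibitor at the lower right, and NC at low levels of both.

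Socs1, which inhibits JAKs directly and limits interferon and gamma chain cytokine signals, had the narrowest range of the 4 SOCS family members followed here. It had 14.2 and 22.7 RPKM in IL-21 + LDHi, 30.1 and 15.5 in IL-21 alone, 32.1 and 39.4 in IL-2 + LDHi, 34.9 and 36.7 in IL-2, and 32.5 and 24.7 in NC. Each group overlapped its neighbour in the order of means. None of the 9 comparisons called it by edgeR. The smallest adjusted p was 0.0597, for IL-21 + LDHi over IL-2 + LDHi (-0.77 ± 0.26), and 6 of 18 alternatives called that difference.

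**Figure D2:**
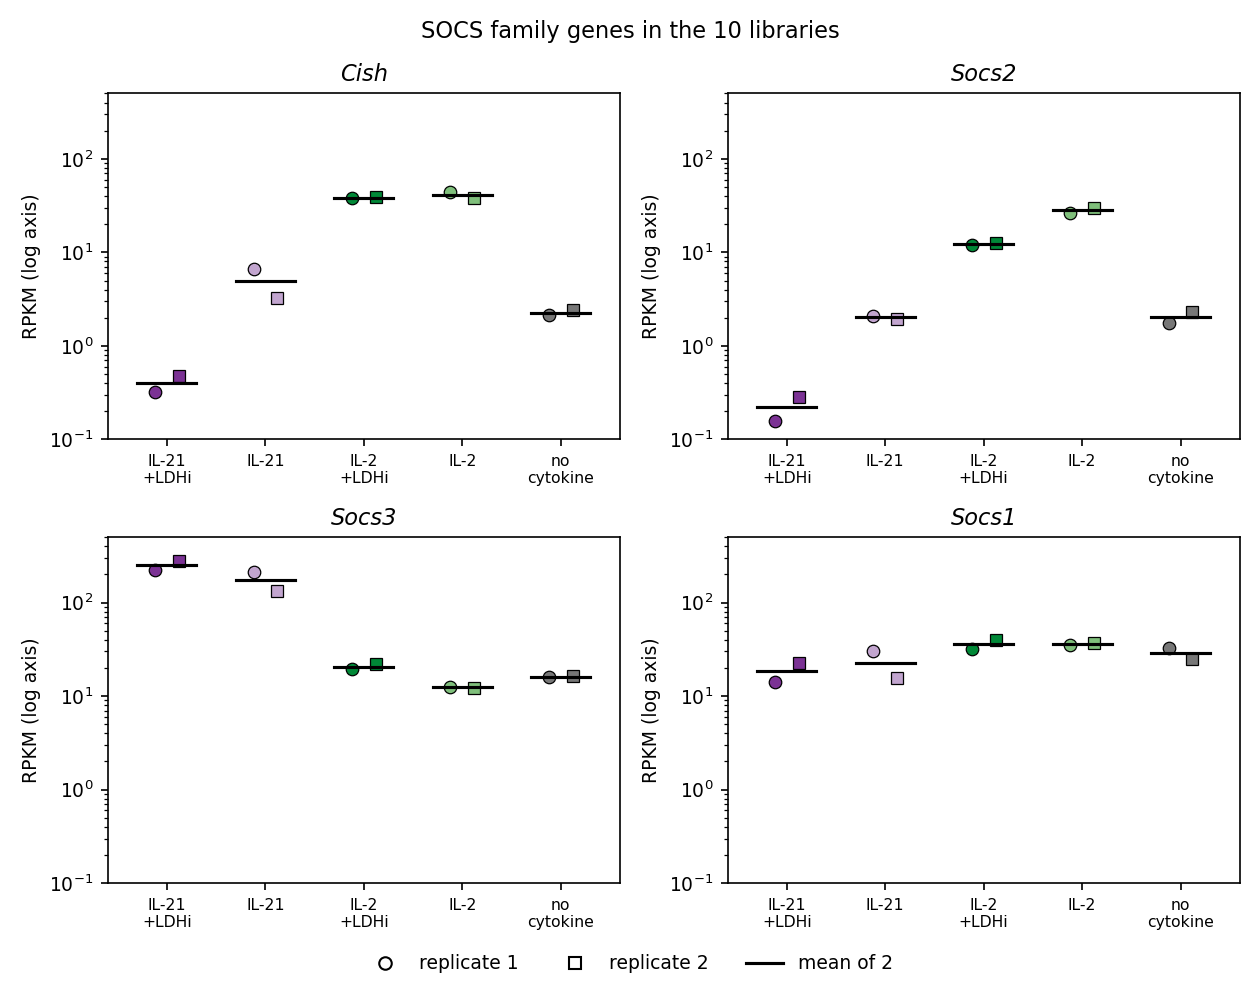
RPKM of Cish, Socs2, Socs3 and Socs1 in the 5 groups on a common log axis, with a circle for replicate 1, a square for replicate 2 and a line at the mean of 2. Cish and Socs2 are lowest in IL-21 + LDHi and highest in IL-2, Socs3 is highest in IL-21 + LDHi, and Socs1 stays within 14.2 to 39.4 RPKM.

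Pim1, a serine/threonine kinase whose RNA is induced by both STAT3 and STAT5, was raised by both cytokines. It had 188 and 182 RPKM in IL-21 + LDHi, 175 and 126 in IL-21 alone, 85.3 and 84.8 in IL-2 + LDHi, 120 and 128 in IL-2, and 47.3 and 41.7 in NC. NC was below every other group, and IL-2 and IL-21 overlapped in RPKM. In counts scaled by TMM, the scale of the tests, both IL-21 libraries were above both IL-2 libraries. The log2 fold change over NC was 1.90 ± 0.11 with IL-21 (adjusted p = 2.84e-05) and 1.46 ± 0.11 with IL-2 (1.45e-05). The inhibitor lowered Pim1 in IL-2 cells (-0.58 ± 0.11, adjusted p = 0.00292), and the value in IL-21 cells was 0.28 ± 0.11 (0.0809). IL-21 was above IL-2 by 0.45 ± 0.11 (adjusted p = 0.00836), a call lost without IL-2 replicate 1 (0.0678), in a fit of these groups alone (0.0637) and in limma (0.228).

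Pim2, the related kinase that sustains growth and survival of lymphocytes, had opposite signs of change with the inhibitor under the 2 cytokines, 1 of them called. It had 183 and 182 RPKM in IL-21 + LDHi, 167 and 111 in IL-21 alone, 53.2 and 57.9 in IL-2 + LDHi, 147 and 181 in IL-2, and 72.3 and 54.4 in NC. IL-2 + LDHi overlapped NC (log2 fold change -0.25 ± 0.16, adjusted p = 0.321), while IL-2 alone was higher than NC by 1.35 ± 0.16 (0.000189) and IL-21 by 1.27 ± 0.16 (0.00213; 0.0897 in a fit of these groups alone). With the inhibitor Pim2 fell by 1.60 ± 0.17 in IL-2 cells (adjusted p = 0.00014), and in IL-21 cells the value was 0.38 ± 0.16 (0.104). The interaction was 1.99 ± 0.23 for Pim2 (adjusted p = 0.00048) and 0.86 ± 0.15 for Pim1 (0.00428).

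Bcl3, an atypical IkB protein that joins the NF-kB subunits p50 and p52 and promotes T cell survival, was high with IL-21 and lowest with IL-2 + LDHi. It had 41.4 and 49.8 RPKM in IL-21 + LDHi, 64.6 and 60.0 in IL-21 alone, 4.14 and 4.62 in IL-2 + LDHi, 12.2 and 14.997 in IL-2, and 8.60 and 6.54 in NC. All 5 groups were separate from each other. IL-21 raised it by 3.20 ± 0.17 over NC (adjusted p = 2.03e-05) and IL-2 by 0.83 ± 0.16 (0.00286). With the inhibitor it fell by 1.68 ± 0.17 in IL-2 cells (adjusted p = 0.000123) and by 0.49 ± 0.16 in IL-21 cells (0.0448), the second call being lost under 9 of 18 alternatives: limma, the fit of these groups alone, and the fits that left out 1 of 7 libraries (either one of IL-2, of IL-2 + LDHi or of IL-21 + LDHi, or IL-21 replicate 2), at adjusted p of 0.0571 to 0.251. The interaction was 1.19 ± 0.23 (adjusted p = 0.00658). IL-2 + LDHi was below NC by a log2 fold change of -0.85 ± 0.17 (adjusted p = 0.00625), a call lost without IL-2 + LDHi replicate 1 (0.0644).

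Stat3, the main STAT of IL-21 signalling and itself a STAT3 target, changed within a narrow range. It had 58.7 and 59.1 RPKM in IL-21 + LDHi, 62.5 and 44.0 in IL-21 alone, 33.2 and 33.1 in IL-2 + LDHi, 44.4 and 52.9 in IL-2, and 39.5 and 34.2 in NC. The inhibitor lowered it in IL-2 cells (-0.59 ± 0.12, adjusted p = 0.00513), a call lost without IL-2 replicate 2 (0.0562) or IL-2 + LDHi replicate 2 (0.0531). In IL-21 cells the value with the inhibitor was 0.13 ± 0.12 (adjusted p = 0.46). Stat3 rose over NC with IL-21 (0.67 ± 0.12, adjusted p = 0.0108) and with IL-2 (0.38 ± 0.12, 0.0291), calls lost under 3 and 9 of 18 alternatives. The IL-21 call was lost without NC replicate 2 (adjusted p = 0.0677), and the IL-2 call without NC replicate 2, IL-2 replicate 2 or any 1 library of IL-2 + LDHi or IL-21 + LDHi (0.0514 to 0.19). The interaction was 0.72 ± 0.17 (adjusted p = 0.0181), lost in limma and without IL-2 replicate 2 or any 1 inhibitor-treated library (0.0661 to 0.0872). Stat3 was higher by 1.01 ± 0.12 in IL-21 + LDHi than in IL-2 + LDHi (adjusted p = 0.000322).

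Stat5a and Stat5b encode the paired STATs of IL-2 signalling, and neither was called higher with IL-2 than in NC. Stat5a had 29.1 and 29.0 RPKM in IL-21 + LDHi, 25.9 and 20.2 in IL-21 alone, 15.3 and 16.6 in IL-2 + LDHi, 14.0 and 15.9 in IL-2, and 20.1 and 16.4 in NC. Both IL-21 + LDHi libraries were above all 8 others, and the IL-2, IL-2 + LDHi and NC ranges overlapped in turn in RPKM. Stat5a was higher by 0.79 ± 0.12 in IL-21 than in IL-2 (adjusted p = 0.000629) and by 0.79 ± 0.12 in IL-21 + LDHi than in NC (0.000655). IL-21 over NC gave 0.49 ± 0.12 (adjusted p = 0.0296), a call lost under 9 of 18 alternatives. It was lost in a fit of these groups alone (adjusted p = 0.289) and in limma (0.234). It was also lost without NC replicate 2 (log2 fold change 0.35) or any 1 library of IL-2, IL-2 + LDHi or IL-21 + LDHi (0.485 to 0.488). The value of Stat5a in IL-2 over NC was -0.31 ± 0.12 (adjusted p = 0.0506).

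Stat5b had 36.0 and 39.2 RPKM in IL-21 + LDHi, 40.4 and 26.4 in IL-21 alone, 27.4 and 28.0 in IL-2 + LDHi, 31.9 and 31.4 in IL-2, and 40.9 and 32.1 in NC. In RPKM, neighbours in the order of means overlapped except IL-2 + LDHi and IL-2, both of which lay inside the IL-21 range. Stat5b differed 1.36-fold in mean RPKM between the lowest and the highest group. It was called in 2 comparisons, IL-21 + LDHi over IL-2 + LDHi (0.62 ± 0.14, adjusted p = 0.0114) and IL-2 + LDHi over NC (-0.46 ± 0.14, 0.0455), and lost those calls under 4 and 9 of 18 alternatives. The first was lost without either IL-2 + LDHi library or IL-21 + LDHi replicate 2 (adjusted p of 0.0834 to 0.0872), the second without NC replicate 1 or any 1 library of IL-2, IL-2 + LDHi or IL-21 + LDHi (0.0819 to 0.259). Stat5b, Stat5a and Stat3 lie side by side on chromosome 11, with 346 bases between Stat5b and Stat5a and 1636 between Stat5a and Stat3. Of the 50-base words of the Stat5a transcript 15.8% also occur in Stat5b, and of those of Stat5b 11.8% occur in Stat5a, so reads could be split between the pair.

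**Figure D3:**
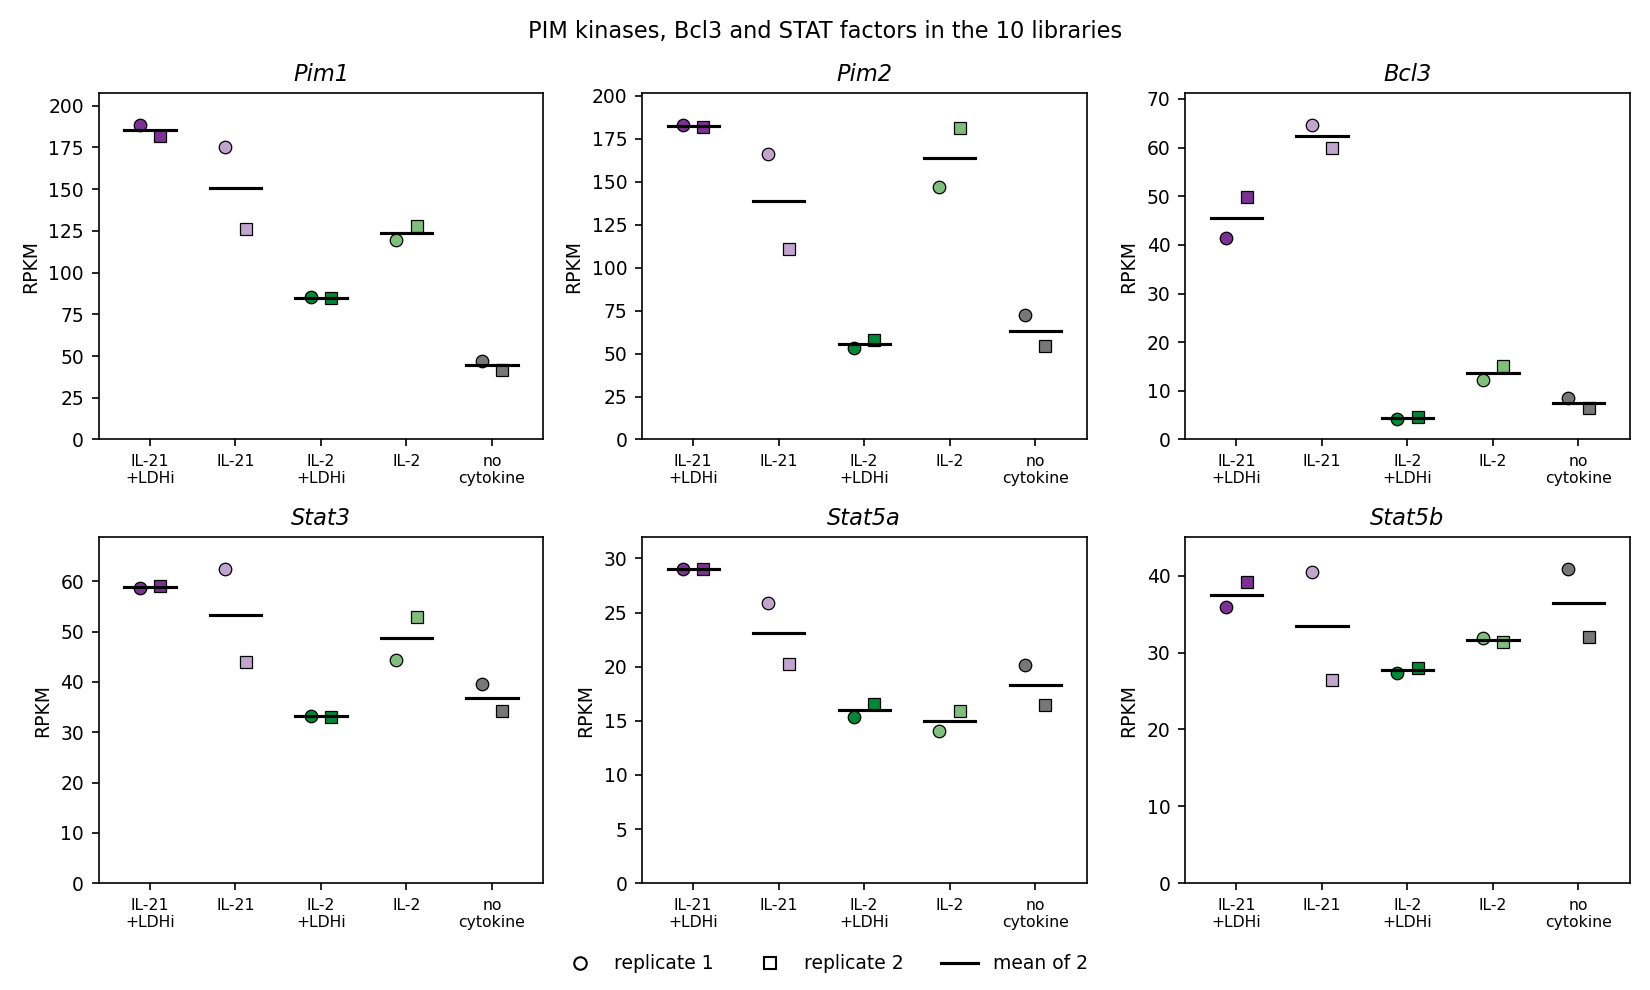
RPKM of Pim1, Pim2, Bcl3, Stat3, Stat5a and Stat5b in the 5 groups, each on its own linear axis from 0, with a circle for replicate 1, a square for replicate 2 and a line at the mean of 2. Bcl3 is above 41 RPKM in the IL-21 groups and at most 14.997 elsewhere, and Pim2 in IL-2 + LDHi (53.2 and 57.9) overlaps the range of NC.

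Counted over the 10 genes, the genes called with the inhibitor differed in part between the cytokines. In IL-21 + LDHi against IL-21, Socs3 was called higher and Socs2, Cish and Bcl3 lower, 4 of 10 where 31.3% of all tested genes were called (11.1% higher, 20.3% lower). In IL-2 + LDHi against IL-2, Socs3 was called higher and Socs2, Pim1, Pim2, Bcl3 and Stat3 lower, 6 of 10 where the share of all genes was 39.4% (17.8% higher, 21.6% lower). With 10 genes and these backgrounds, neither share is read as a result about the members. The median log2 fold change was 0.14 over the members and -0.03 over all genes in IL-21 cells, and -0.41 over the members and 0.01 over all genes in IL-2 cells. The interaction was called for 6 of 10, against 21.7% of all genes (7.98% positive, 13.8% negative), with Pim1, Pim2, Bcl3 and Stat3 positive and Socs2 and Cish negative.

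**Figure D4:**
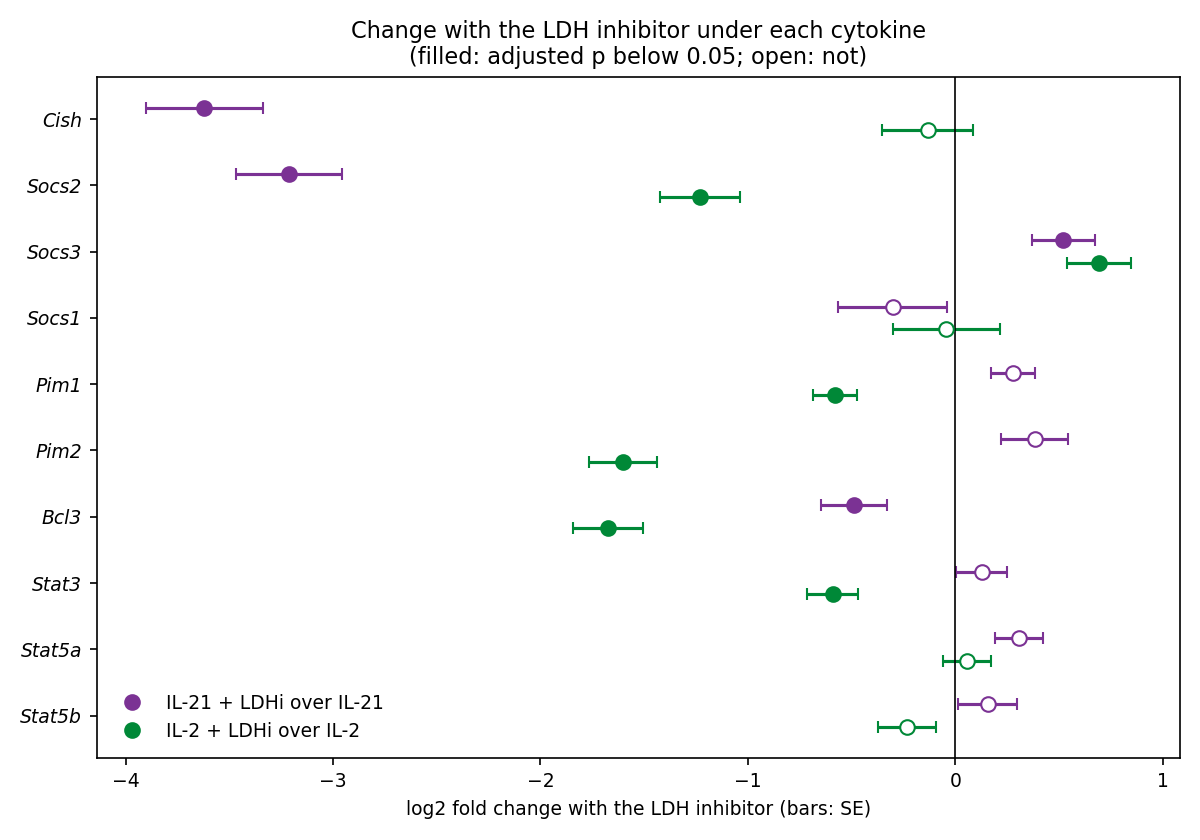
Log2 fold change with the inhibitor for each gene, IL-21 + LDHi over IL-21 (purple) and IL-2 + LDHi over IL-2 (green), with SE bars from edgeR, filled where the adjusted p was below 0.05. Cish is at -3.62 under IL-21 and -0.13 under IL-2, while Pim2 is at -1.60 under IL-2 and 0.38 under IL-21.

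Without the inhibitor, IL-21 against NC called 7 of 10 members, all higher, where 11.5% of all genes were called, 5.65% higher and 5.89% lower. Those 7 were Socs3, Cish, Pim1, Pim2, Bcl3, Stat3 and Stat5a. IL-2 against NC called 6 of 10, all higher, where 50.5% of all genes were called, 25.6% higher and 24.8% lower. Those 6 were Socs2, Cish, Pim1, Pim2, Bcl3 and Stat3. IL-21 against IL-2 called 4 higher (Socs3, Pim1, Bcl3 and Stat5a) and 2 lower (Socs2 and Cish) where 49.6% of all genes were called, 24.9% higher and 24.7% lower. Among these, Socs3 differed by 3.95 ± 0.17 (adjusted p = 4.41e-06), Bcl3 by 2.37 ± 0.17 (1.55e-05), Socs2 by -3.63 ± 0.21 (7.72e-06) and Cish by -2.92 ± 0.24 (3.08e-05).

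With the inhibitor present in both groups, IL-21 + LDHi against IL-2 + LDHi called 9 of 10 members, where 26.1% of all genes were called, 9.38% higher and 16.7% lower. Socs2 (-5.61 ± 0.26, adjusted p = 6.85e-07) and Cish were lower, and Socs3 (3.78 ± 0.17, 5.73e-07), Bcl3 (3.56 ± 0.18, 1.14e-06), Pim2 (1.90 ± 0.17, 4e-05), Pim1 (1.30 ± 0.11, 2.84e-05) and the 3 STAT genes were higher. The median absolute log2 fold change was 1.60 over the members and 0.37 over all genes. IL-21 + LDHi against NC called 8 of 10 (6 higher and 2 lower), where 37.1% of all genes were called, 13.5% higher and 23.6% lower, and IL-2 + LDHi against NC called 5 of 10 (3 higher and 2 lower), where 24.2% were called, 10.9% higher and 13.3% lower. These comparisons share groups and are not independent of each other.

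Among the receptor chains upstream, Il6st and Il2ra had the lowest adjusted p with the inhibitor in IL-21 cells, and Il6ra and Il6st in IL-2 cells. Il2ra, the high-affinity chain of the IL-2 receptor and itself a STAT5 target, was at 1.60 to 2.14 RPKM in IL-21 + LDHi, 9.87 to 18.7 in IL-21, 35.1 to 37.2 in IL-2 + LDHi, 187 to 194 in IL-2 and 6.81 to 8.20 in NC. With the inhibitor it fell by 3.02 ± 0.35 in IL-21 cells (adjusted p = 0.00024) and by 2.43 ± 0.33 in IL-2 cells (0.000601), so in IL-2 cells it was called lower where Cish was not. Il6st, which encodes gp130, the receptor chain that SOCS3 binds, was at 106 to 114 RPKM in IL-21 + LDHi, 33.1 to 33.5 in IL-21, 36.2 to 37.4 in IL-2 + LDHi, 17.5 to 19.0 in IL-2 and 37.8 to 39.2 in NC. With the inhibitor it rose by 1.68 ± 0.12 in IL-21 cells (adjusted p = 1.41e-05) and by 0.97 ± 0.12 in IL-2 cells (0.000371), with an interaction of 0.70 ± 0.17 (0.0182). Il6ra, the IL-6 binding chain that pairs with gp130, rose by 4.46 ± 0.22 in IL-2 cells (adjusted p = 8.25e-06). It was at 64.0 to 65.3 RPKM in IL-21 + LDHi, 20.3 to 22.5 in IL-21, 23.6 to 24.3 in IL-2 + LDHi, 0.84 to 1.27 in IL-2 and 17.0 to 20.1 in NC. The rise in IL-2 cells thus began from a level far below NC, and Il6ra was also higher with the inhibitor in IL-21 cells. Of the 7 receptor chains, 3 were called higher and 2 lower with the inhibitor in IL-21 cells (median log2 fold change -0.14), and 3 higher and 1 lower in IL-2 cells (median 0.32). Over all genes 11.1% were called higher and 20.3% lower in IL-21 cells (median -0.03), and 17.8% higher and 21.6% lower in IL-2 cells (median 0.01). These shares are the background for every inhibitor count in the lists that follow, and in a list of 7 genes or fewer the counts are given only as a description.

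Of the 4 JAK kinases, Jak3, the partner of the common gamma chain, was called lower with the inhibitor in IL-2 cells. It was at 55.5 to 56.7 RPKM in IL-21 + LDHi, 42.2 to 77.0 in IL-21, 16.1 to 16.3 in IL-2 + LDHi, 50.9 to 53.2 in IL-2 and 18.1 to 27.4 in NC. The inhibitor lowered Jak3 by a log2 fold change of -1.72 ± 0.22 in IL-2 cells (adjusted p = 0.000395), and the interaction was 1.64 ± 0.30 (0.00511), the same sign as for Pim2. The inhibitor comparison called 0 of the 4 JAK genes higher and 1 lower in IL-21 cells, and 1 higher and 1 lower in IL-2 cells, which is near the shares over all genes.

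Of 17 further STAT5 target genes, 15 were called higher with IL-2 than in NC, and 10 were called lower with the inhibitor under each cytokine. This list and the STAT3 list below were chosen with earlier results of these data known, so their counts are given only as a description. IL-2 over NC called 15 higher and 1 lower (median log2 fold change 1.78), where 25.6% of all genes were called higher and 24.8% lower (median -0.03), led by Nfil3, a leucine zipper factor (3.89 ± 0.17, adjusted p = 2.54e-06), and Gzmb, which encodes granzyme B (5.92 ± 0.29, 3.01e-06). IL-21 over IL-2 called 0 higher and 13 lower (median -1.18), where 24.9% of all genes were higher and 24.7% lower (median 0.02). With the inhibitor 3 were called higher and 10 lower in IL-21 cells (median -0.72), where 20.3% of all genes were lower (median -0.03). In IL-2 cells 0 were called higher and 10 lower (median -0.82), where 21.6% of all genes were lower (median 0.01). The interaction called 4 positive and 4 negative, where 7.98% of all genes were positive and 13.8% negative, among them Gzmb (-4.84 ± 0.36, adjusted p = 4.01e-05) and Tnfrsf4, which encodes the costimulatory receptor OX40 (3.17 ± 0.20, 1.45e-05).

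Of 17 further STAT3 target genes, 16 were tested, and with the inhibitor 10 were called lower in IL-21 cells and 9 in IL-2 cells, while Socs3 was called higher in both. IL-21 over NC called 7 higher and 0 lower (median 0.61), where 5.65% of all genes were higher and 5.89% lower (median -0.01), led by Nfkbiz, another atypical IkB gene (1.83 ± 0.13, adjusted p = 0.000103). In IL-2 cells the inhibitor comparison called 5 higher and 9 lower (median -0.70), where 17.8% of all genes were higher and 21.6% lower (median 0.01). With the inhibitor in IL-21 cells 2 were called higher and 10 lower (median -1.54), where 11.1% of all genes were higher and 20.3% lower (median -0.03), including Irf4, a factor of effector differentiation (-3.68 ± 0.21, adjusted p = 3.08e-06). Bcl6, a repressor linked to memory and follicular helper programmes, was at 10.8 RPKM in both IL-21 + LDHi libraries and 2.01 to 2.03 in IL-2 + LDHi (2.59 ± 0.14, adjusted p = 1.32e-06).

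The other SOCS and PIM genes were Socs4, Socs5, Socs6, Socs7 and Pim3. With the inhibitor, 2 of 5 were called higher in IL-21 cells, Socs5 (0.64 ± 0.13, adjusted p = 0.00597) and Pim3 (1.05 ± 0.27, 0.0168), and 2 of 5 in IL-2 cells, Socs4 (0.78 ± 0.13, 0.00145) and Socs5 (0.48 ± 0.13, 0.0182), with 0 lower under either cytokine and medians of 0.21 in IL-21 cells and 0.05 in IL-2 cells. Over all genes 11.1% were higher in IL-21 cells and 17.8% in IL-2 cells. Of 13 phosphatase and PIAS genes, which remove phosphate from the pathway or bind STATs, 0 were higher and 4 lower in IL-21 cells (median -0.21) and 1 higher and 5 lower in IL-2 cells (median -0.20). Dusp5, an ERK phosphatase, fell by 3.91 ± 0.32 in IL-21 cells (adjusted p = 3.06e-05) and Dusp4, of the same family, had a log2 fold change of -3.05 ± 0.33 in IL-2 cells (0.000179). Of 8 NF-kB and IkB genes, the family that BCL3 works with, 0 were higher and 3 lower in IL-21 cells (median -0.38), and 2 were higher and 2 lower in IL-2 cells (median -0.11). With 20.3% of all genes lower in IL-21 cells and 21.6% in IL-2 cells, the counts of neither list are read as a result about it.

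The genes most like 4 of the members were sought by the Pearson r of log2 counts scaled by TMM over the 10 libraries, among 8431 genes with a mean of at least 5 RPKM in some group, as a description. For Cish they were Mcm5 (r = 0.996), Spc24 (0.995) and Uhrf1 (0.993). Mcm5 averaged 7.88 RPKM in IL-21 + LDHi, 19.3 in IL-21, 54.8 in IL-2 + LDHi, 48.9 in IL-2 and 16.2 in NC, and so, like Cish, was lowest in IL-21 + LDHi and high in both IL-2 groups. For Socs3 they were Ust (0.986), Ablim1 (0.986) and Map4k4 (0.982), and for Bcl3 they were Zfp36 (0.995), Junb (0.978) and Slc39a1 (0.973). For Pim1 they were Ccdc102a (0.965), Cnpy4 (0.956) and Mir147 (0.956), the last a short hairpin whose reads cannot be told apart from those of a transcript that overlaps it. The points share libraries, depth and treatment groups.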

How the data were processed

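The authors' deposited tables give, for each library, whole-number read counts per RefSeq transcript and RPKM. Per the submitters' processing notes, mm10, Bowtie2 2.2.6, TopHat2 2.2.1, SAMtools 0.1.8, bedtools 2.25.0 and edgeR were used. The counting tool and strand setting are not given in the sources used here. The deposited RPKM values divide counts by transcript length and the library total.

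For each symbol, counts of its most-read transcript entered edgeR 4.0.16 (R 4.3.3). Genes passed filterByExpr at a count of 10 and a total of 15, which left 14357. Scaling was by TMM, and a robust quasi-likelihood model with no block was fitted to the 10 libraries. The coefficient of variation common to all genes was 0.171. The 9 comparisons include 1 interaction. Tests were two-sided, adjusted by Benjamini-Hochberg over all tested genes within a comparison, and called below 0.05. The SE is the size of the log2 fold change divided by the square root of F.

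There were 18 alternatives: DESeq2 1.42.0, RLE factors, no TMM factor, no filter, the longest transcript, limma 3.58.1 on log2(RPKM + 1) with RPKM of at least 1 in 2 libraries, a block for the replicate number, a fit of only the groups compared, and 10 fits that each left out 1 library. The members, the 8 pathway lists (72 genes) and the 10 marker lists (62 genes) were chosen with earlier results of these data known. The result of 1 pathway list is not reported here. Named list genes are at most 2 per list and comparison, by lowest p among those called. Il2ra, Il6ra, Jak3, Il6st and Bcl6 levels follow that rule in at least 1 comparison. Promoter sequence is RefSeq's, and 9 members matched. Python 3.11.15, pandas 2.3.3, numpy 2.4.6 and matplotlib 3.10.9 made tables and figures.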

Additional observations from a re-analysis of the deposited data

Results flagged for a closer look

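For 6 of the 10 genes the effect of the inhibitor differed between IL-21 and IL-2 cells by the interaction term of the edgeR fit. The difference (IL-21 effect minus IL-2 effect, log2) was -3.49 for Cish, -1.98 for Socs2, 1.99 for Pim2, 1.19 for Bcl3, 0.86 for Pim1 and 0.72 for Stat3. The calls for Stat3 (adjusted p = 0.0181) and Socs2 were the ones lost under an alternative, in 6 of 18 (limma, without IL-2 replicate 2 or without any 1 inhibitor-treated library, adjusted p of 0.0661 to 0.0965) and in limma alone (0.586). Groups of 2 libraries are too small for the check for a single outlying sample.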

How the results depend on the processing

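Of 57 called member results, 42 were called under all 18 alternatives, 15 lost the call under at least 1, and 0 changed sign, while 12 of 33 uncalled results were called under at least 1. Members called in IL-21 over NC fell to 4 in limma and 3 with only the groups compared, against 7, and ranged from 4 to 7 with 1 library left out (4 without NC replicate 2). In IL-21 + LDHi over IL-21 they were 2 in limma and 2 with only the groups compared, against 4, and 2 to 6 with 1 library left out (2 without IL-2 replicate 1, IL-2 replicate 2, IL-21 replicate 2 or IL-21 + LDHi replicate 2). In IL-2 + LDHi over NC they were 3 to 5 (3 without IL-2 + LDHi replicate 1). The cause was not tested. Signs changed only in uncalled values, given here as log2 fold changes with 1 library left out, lowest to highest. In IL-21 over NC they were -0.58 to 0.086 for Socs1, -0.031 to 0.37 for Socs2 and -0.16 to 0.19 for Stat5b, which was also -0.062 with library size alone and -0.14 in limma. In IL-21 over IL-2 Pim2 was -0.24 to 0.051. In IL-2 + LDHi over IL-2 Socs1 was -0.18 to 0.089, and 0.075 with library size alone, and Stat5a was -0.019 to 0.15. In IL-21 + LDHi over IL-21 Socs1 was -0.67 to 0.068. In the interaction Socs1 was -0.63 to 0.11 and Socs3 -0.35 to 0.031.

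Counts over all genes moved more. With only the groups compared, those called were 91 in IL-21 over NC (1657 over all groups), 4522 in IL-21 over IL-2 (7123), 2259 in IL-21 + LDHi over IL-21 (4500), 9070 in IL-2 + LDHi over IL-2 (5657) and 7352 in IL-21 + LDHi over IL-2 + LDHi (3741). In limma they were 2710 in IL-21 + LDHi over IL-21, 2154 in IL-2 + LDHi over NC (3474), 3362 in IL-21 + LDHi over NC (5322) and 1915 in the interaction (3122). With 1 library left out they spanned 749 to 3967 in IL-21 over NC, 2453 to 6660 in IL-21 + LDHi over IL-21, 3113 to 7326 in IL-2 + LDHi over IL-2, 2056 to 5493 in IL-21 + LDHi over IL-2 + LDHi, 1556 to 5192 in IL-2 + LDHi over NC, 3539 to 6861 in IL-21 + LDHi over NC, 1742 to 5201 in the interaction and 4511 to 8370 in IL-21 over IL-2. Library size alone moved the median of all genes by -0.14 in IL-2 over NC, 0.12 in IL-2 + LDHi over IL-2 and -0.14 in the interaction.

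With the replicate number as a block, member counts were 6, 7, 6, 6, 4, 9, 5, 8 and 6 in the 9 comparisons, equal to those without it. Deviations of same-numbered libraries correlated at -0.15 to 0.48 over 10 pairs of groups, so the numbers were not treated as pairing. Depth limits Cish and Socs2 most in IL-21 + LDHi, at 17 to 52 reads.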
